A study of Solanum lycopersicum with 6 samples.

Results

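The abscisic acid synthesis and catabolism genes are 10 genes of the tomato array, 6 for synthesis and 4 for catabolism, each represented by a single probe, so that 10 of the 43803 non-control probes are described here. They were chosen by identifier, by taking every probe whose gene identifier without its version suffix is on the list, and the rule uses no measured value, although the list was drawn up with earlier results of these data known. Expression was measured in epicotyls, the stem above the cotyledons, of S. lycopersicum seedlings (cultivar Managua RZ) at an age of 14 d. Seedlings had been kept for 7 d with a 16 h photoperiod at 30°C by day and 25°C by night, called positive DIF, or at 25°C by day and 30°C by night, called negative DIF. DIF is the day temperature minus the night temperature. Both groups were raised alike under a constant temperature before the treatments, and the same light level was used in both. Each treatment had 3 one-colour arrays, 1 per biological replicate. How many seedlings entered a replicate is not given in the sources used here.

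Abscisic acid is the plant hormone best known for closing stomata under water shortage, for restraining germination and for its part in balancing shoot growth. It is made from carotenoids. In plastids, zeaxanthin epoxidase (ZEP) turns zeaxanthin into violaxanthin, and 9-cis-epoxycarotenoid dioxygenases (NCED) cleave the 9-cis xanthophylls into xanthoxin, which is regarded as the committed step. In the cytosol, ABA2 oxidises xanthoxin to abscisic aldehyde, and an aldehyde oxidase encoded at the SITIENS locus oxidises the aldehyde to abscisic acid. FLACCA encodes the molybdenum cofactor sulfurase that this oxidase needs, and tomato plants lacking SITIENS or FLACCA function wilt readily. The hormone is inactivated mainly by the CYP707A cytochrome P450 enzymes, which hydroxylate it at the 8' position. The gene identifiers come from the array files, the names are those of the list the genes were taken from, and the files themselves pair identifiers with no names. Going by the number in each identifier, SITIENS lies on chromosome 1, ZEP on chromosome 2, ABA2, CYP707A1 and CYP707A3 on chromosome 4, NCED1 and FLACCA on chromosome 7, and NCED2, CYP707A2 and CYP707A4 on chromosome 8. No probe, promoter or protein sequence of these genes was at hand.

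On each array between 62.2% and 67.0% of probes stood well above background, meaning that the scanner software rated the spot as clearly brighter than its surroundings, and no spot was saturated. Levels below are log2 signals minus the 75th percentile of the array, so a value of 0 marks a spot at that percentile, and levels are compared between arrays for a given probe, not between probes. Differences are negative minus positive DIF, fitted with limma over all probes with Benjamini-Hochberg adjustment. Negative DIF replicates 1 and 2 were on slide 1 and the other 4 arrays on slide 2, so slide and treatment overlap in part. A comparison within slide 2, also made by fitting slide as a fixed block, sets negative DIF replicate 3 alone against the 3 positive DIF arrays. The 7 probes of a list of 6 identifiers for green tissue, shoot meristem and xylem were well above background on all 6 arrays. Of 3 identifiers listed for ripe fruit, 1 was below this mark on every array and the other 2 were above it on every array. The processed signal summed over all 3 was 1956 to 2702 under negative DIF and 3181 to 6759 under positive DIF. Ripe-fruit identifiers had been listed as ones that should be near background, and 2 of the 3 were not. The 1 pollen identifier had signals from 10.5 to 31.7 and was well above background on at least 1 array, though not on all 6. The roles of these marker identifiers were written from general knowledge and could not be checked against an annotation here.

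None of the 10 genes passed an adjusted p under 0.05 in limma, where 0.920% of all probes did, and their adjusted p ran from 0.252 to 0.998. At an unadjusted p under 0.05, 1 of the 10 passed, SITIENS, against 18.9% of all probes. SITIENS was also the only member whose 3 arrays of one treatment all lay on one side of the other 3, a separation that 27.0% of all probes showed, 14.6% with negative DIF above and 12.4% with it below. Fitted means were higher under negative DIF for 5 members and lower for 5, with a median difference of -0.0047 on the log2 scale against 0.07 for all probes. The shares called among the members are thus below those of the array at large, and with 10 genes neither share is a result about the pathway. Of the members, 8 were well above background on all 6 arrays, and CYP707A3 and CYP707A4 were not.

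**Figure D1:**
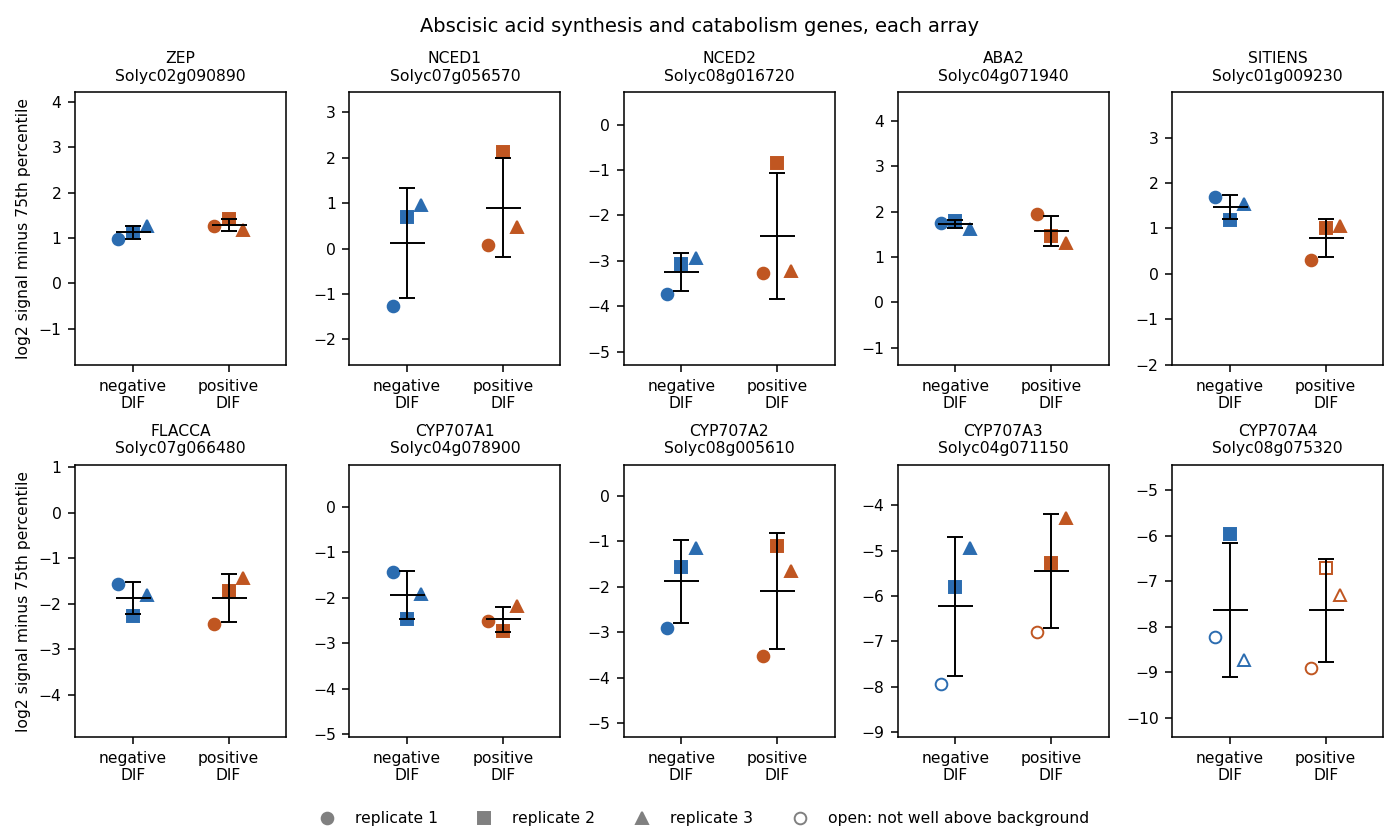
Log2 signal minus the array's 75th percentile (vertical axis, each panel spanning the same range) for the 10 genes on the 3 negative DIF (blue) and 3 positive DIF (orange) arrays, with the mean and SD as bars, symbols for the replicate number and open symbols where the probe was not well above background. Only for SITIENS do the treatments not overlap. NCED1, CYP707A2, CYP707A3 and CYP707A4, the last mostly at background, spread widely within both treatments, and NCED2 does so under positive DIF.

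ZEP (Solyc02g090890), which makes violaxanthin upstream of the cleavage step, was the steadiest member. Its levels were 0.99, 1.13 and 1.27 on negative DIF replicates 1 to 3 and 1.26, 1.42 and 1.17 on positive DIF replicates 1 to 3. The treatments overlapped, and the highest array was 1.35-fold above the lowest. The 3 negative DIF arrays averaged 1.13 ± 0.14 and the 3 positive DIF arrays 1.29 ± 0.13 (each SD, n = 3). The difference was -0.16 (standard error 0.18, adjusted p = 0.733 from limma), with a 95% interval from -0.59 to 0.27. The upper end is a 1.21-fold rise under negative DIF, and larger rises of ZEP lie outside this interval.

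The NCED genes, which encode the dioxygenases of the committed step, had lower fitted means under negative DIF, but the spread between replicates was larger than the difference. NCED1 (Solyc07g056570), the gene mutated in the wilty tomato mutant notabilis, had levels of -1.26, 0.69 and 0.96 on negative DIF replicates 1 to 3. On positive DIF replicates 1 to 3 its levels were 0.08, 2.13 and 0.48. Negative DIF replicate 1 was the lowest array and positive DIF replicate 2 the highest, 10.5-fold apart, so the treatments overlapped. Of the 4 arrays between them, the negative DIF ones lay above the positive DIF ones, opposite in direction to the fitted difference. The mean of the negative DIF arrays was 0.13 ± 1.21 and that of the positive DIF arrays 0.90 ± 1.09 (each SD, n = 3). The difference of -0.77, or 1.70-fold lower under negative DIF, had a standard error of 0.77 (adjusted p = 0.683 from limma). Its 95% interval ran from 6.18-fold lower to 2.13-fold higher, so neither a several-fold fall nor a moderate rise of NCED1 could be told from no change. The value depended on single arrays: it was -0.07 without negative DIF replicate 1 and -0.15 without positive DIF replicate 2. Within slide 2, which holds negative DIF replicate 3 and all positive DIF arrays, it was 0.06.

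NCED2 (Solyc08g016720), a second dioxygenase gene of the same family, was set apart by a single array. Its levels were -3.73, -3.07 and -2.93 on negative DIF replicates 1 to 3 and -3.27, -0.85 and -3.23 on positive DIF replicates 1 to 3. Positive DIF replicate 2 had a processed signal of 863, whereas the other 5 arrays ran from 153 to 226. The means were -3.25 ± 0.43 (SD, n = 3) and -2.45 ± 1.39 (SD, n = 3) under negative and positive DIF. The fitted difference was -0.80 (standard error 0.69, adjusted p = 0.623 from limma), 1.74-fold lower under negative DIF with a 95% interval from 5.52-fold lower to 1.83-fold higher. Without positive DIF replicate 2 the difference was 0.0043, so the fitted fall of NCED2 rests on that array. The same array was the highest for NCED1.

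Among 25325 probes of other genes that were well above background on every array, the 3 whose levels followed NCED2 most closely over the 6 arrays were those of Solyc12g006380, Solyc03g117860 and Solyc08g066500. NCED2 was used for this search because its fitted difference was the largest in size among the members measured on every array. The Pearson r was 0.994, 0.994 and 0.993, as a description over 6 arrays. All 3 probes had their highest level on positive DIF replicate 2, and the same array sets the likeness. For Solyc12g006380 that level was -0.89, against -5.01 to -4.13 on the other 5 arrays. The files give no description of these genes.

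The enzymes that finish the synthesis were steadier. ABA2 (Solyc04g071940), the short-chain dehydrogenase that makes abscisic aldehyde, had levels of 1.75, 1.80 and 1.62 on negative DIF replicates 1 to 3. On positive DIF replicates 1 to 3 it had 1.94, 1.45 and 1.31. The highest and the lowest array were both positive DIF arrays, so the negative DIF values lay inside the positive DIF range. The means were 1.72 ± 0.09 (SD, n = 3) and 1.57 ± 0.33 (SD, n = 3). The difference was 0.15 (standard error 0.22, adjusted p = 0.818 from limma), with a 95% interval from 1.31-fold lower to 1.61-fold higher under negative DIF.

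SITIENS (Solyc01g009230), the aldehyde oxidase of the last step, was higher on every negative DIF array than on any positive DIF array. Its processed signals were 7798, 4331 and 4571 on negative DIF replicates 1 to 3 and 1827, 3114 and 3063 on positive DIF replicates 1 to 3. On the scaled log2 axis the lowest negative DIF array, replicate 2, stood at 1.19 and the highest positive DIF array, replicate 3, at 1.05. The treatments thus came close to each other, while negative DIF replicate 1 was the highest at 1.69 and positive DIF replicate 1 the lowest at 0.30. The means were 1.47 ± 0.26 (SD, n = 3) and 0.79 ± 0.42 (SD, n = 3). The difference was 0.69, or 1.61-fold higher under negative DIF (standard error 0.28), with a 95% interval from 1.01-fold to 2.55-fold higher. In limma its p was 0.0454 unadjusted and 0.252 after adjustment. It therefore met the unadjusted threshold and failed the adjusted one. The exact permutation test of 3 arrays against 3 gave a two-sided p of 0.1, the smallest this design can give. With 1 array left out in turn the difference stayed between 0.44 and 0.83 and the unadjusted p from limma lay between 0.0413 and 0.118, above 0.05 without negative DIF replicate 1 or 3 or positive DIF replicate 1 or 2. Within slide 2 the difference was 0.75, but negative DIF replicate 3 is the only negative DIF array there, so this sets 1 array against 3.

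FLACCA (Solyc07g066480), whose product sulfurates the cofactor of that oxidase, had nearly equal means. Levels were -1.56, -2.26 and -1.82 on negative DIF replicates 1 to 3 and -2.45, -1.71 and -1.43 on positive DIF replicates 1 to 3. The treatments overlapped over most of their range. The means were -1.88 ± 0.36 (SD, n = 3) and -1.86 ± 0.53 (SD, n = 3), a difference of -0.02 (standard error 0.33, adjusted p = 0.985 from limma). The 95% interval reached from 1.77-fold lower to 1.73-fold higher under negative DIF, which leaves room for a change of moderate size in either direction.

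**Figure D2:**
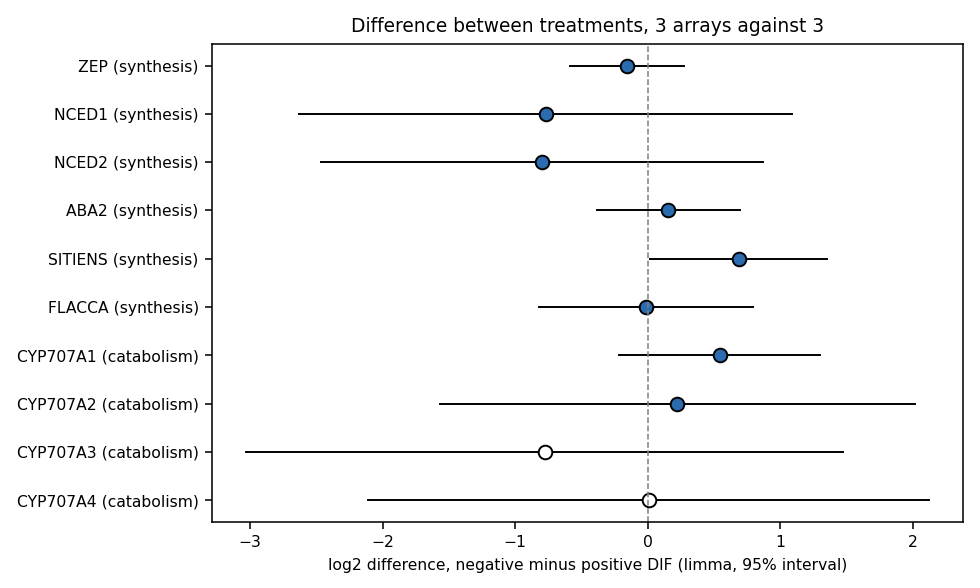
Log2 difference between negative and positive DIF for the 10 genes (points) with the 95% interval from limma (lines), filled where the probe was well above background on all 6 arrays, open where its values are in part or mostly at background. The interval of SITIENS starts just above 0, the other 9 include 0, and those of ZEP and ABA2 are the narrowest.

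Of the catabolic genes, CYP707A1 (Solyc04g078900), an 8'-hydroxylase gene, came closest to a difference. Its levels were -1.42, -2.47 and -1.92 on negative DIF replicates 1 to 3 and -2.52, -2.72 and -2.19 on positive DIF replicates 1 to 3. Negative DIF replicates 1 and 3 were the highest arrays, but negative DIF replicate 2 fell among the positive DIF arrays. The means were -1.94 ± 0.52 (SD, n = 3) and -2.48 ± 0.27 (SD, n = 3). The difference was 0.54, or 1.45-fold higher under negative DIF (standard error 0.31, adjusted p = 0.418 from limma), with a 95% interval from 1.16-fold lower to 2.46-fold higher. Left-out arrays moved it between 0.28, without negative DIF replicate 1, and 0.81, without negative DIF replicate 2, and in the latter fit alone it met the unadjusted threshold (limma, unadjusted p = 0.0367, adjusted p = 0.347).

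CYP707A2 (Solyc08g005610), a further gene of this family, varied with the array more than with the treatment. Its processed signals were 323, 639 and 705 on negative DIF replicates 1 to 3 and 128, 725 and 466 on positive DIF replicates 1 to 3. In both treatments replicate 1 was the lowest, and after scaling the highest array was 5.40-fold above the lowest. The means were -1.88 ± 0.91 (SD, n = 3) and -2.10 ± 1.27 (SD, n = 3). The difference was 0.22 (standard error 0.74, adjusted p = 0.904 from limma), with a 95% interval from 2.97-fold lower to 4.04-fold higher under negative DIF. It turned to -0.50 without positive DIF replicate 1, rose to 0.73 without negative DIF replicate 1 and was 0.94 within slide 2.

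The other family members were near background. CYP707A3 (Solyc04g071150) was well above background on 2 of 3 arrays in each treatment, with processed signals of 9.91, 33.8 and 51.0 on negative DIF replicates 1 to 3. On positive DIF replicates 1 to 3 its signals were 13.4, 40.0 and 75.3. Replicate 1 was the dim array in both treatments. Because that array was not well above background in either treatment, no fold is given, and the fitted log2 difference of -0.78 (standard error 0.93, adjusted p = 0.755 from limma) rests in part on values at background. It was 0.07 without negative DIF replicate 1. CYP707A4 (Solyc08g075320) was well above background on negative DIF replicate 2 alone, with a processed signal of 30.5 there and signals from 3.08 to 14.8 on the other 5 arrays. No fold is given for it, because the mean under negative DIF was below the lowest signal rated well above background under positive DIF.

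Among the members well above background on every array, NCED1, NCED2 and CYP707A2 spread more within a treatment than the rest. This description was made after their values were seen. For the 25326 probes well above background on all arrays, the median SD within a treatment was 0.27 on the log2 scale. NCED1 had an SD of 1.15, CYP707A2 of 1.11 and NCED2 of 1.03, which placed them at the 98.3rd, 97.9th and 97.2nd percentile of these probes. By the same measure ZEP was at the 13.8th percentile with an SD of 0.13 and ABA2 at the 44.5th with 0.24. SITIENS, CYP707A1 and FLACCA lay between, at the 65.1st, 73.2nd and 76.4th percentile. Because the spread varied with the level, as the plot of SD against mean level shows, each was also ranked among the probes whose mean lay within 0.5 log2 units of its own. There NCED1 stood at the 99.0th, CYP707A2 at the 97.2nd and NCED2 at the 94.0th percentile. SITIENS stood at the 82.1st, FLACCA at the 69.3rd, ABA2 at the 63.5th and CYP707A1 at the 61.1st. Only ZEP, at the 23.1st, was below the middle of the probes of similar level. Positive DIF replicate 2 was the highest array for NCED1, NCED2 and CYP707A2, and negative DIF replicate 1 was the lowest for NCED1 and NCED2 and the second lowest for CYP707A2. These 2 arrays were on different slides. Whether water status, handling or the time of harvest differed between replicates is not given in the sources used here and was not tested.

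**Figure D3:**
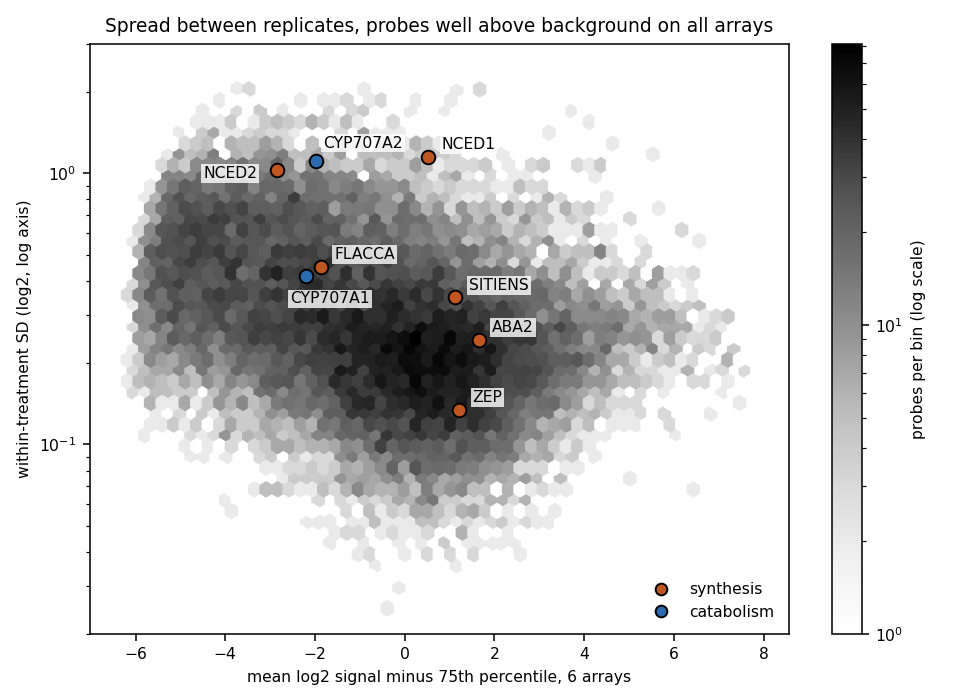
SD within a treatment (vertical, log axis) against the mean level over 6 arrays (horizontal, log2 signal minus the 75th percentile) for the probes well above background on all arrays (grey, darker for more probes) and for the 8 members among them (orange for synthesis, blue for catabolism). NCED1, NCED2 and CYP707A2 lie at the upper edge of the cloud and ZEP in its lower part.

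Genes around the pathway were counted on lists of identifiers written from general knowledge of tomato, whose roles could not be checked against an annotation here, so no single gene of these lists is named. Of 12 probes for carotenoid steps before the cleavage and for a further dioxygenase, 0 passed at an unadjusted or an adjusted p under 0.05 in limma. The median difference was 0.03 against 0.07 for all probes, and the lowest adjusted p was 0.343. For abscisic acid receptors, 4 of 18 probes, of 14 genes, were lower and 0 higher at the unadjusted threshold, with a median of -0.26. Clade A protein phosphatases of type 2C, which the receptors inhibit, had 1 of 8 probes lower and a median of -0.50. SnRK2 kinases, which these phosphatases hold inactive, had 1 of 7 lower and a median of -0.30, and transcription factors of the ABF and ABI groups had 1 of 6 lower and a median of -0.08. Responsive targets such as dehydrins had 1 of 6 lower and a median of -0.49. Across the signalling and target lists 8 of 45 probes, or 17.8%, were lower and 0 higher at the unadjusted threshold. The 45 probes are of 41 genes, so a gene with several probes can count more than once. Of all probes 8.72% were lower and 10.2% higher. Only 33 of these 45 probes were well above background on all 6 arrays, and 6 were so on none. A filter on dim probes kept those well above background on all 3 arrays of at least 1 treatment. Of the 35 list probes it left, 7, or 20%, were lower, against 13.8% of all probes kept. Since a probe could pass through the treatment where it was high, no conclusion is drawn from this share. None of the 45 passed the adjusted threshold, at which 0.495% of all probes were lower and 0.425% higher, and the lowest adjusted p among them was 0.119 in limma. With slide as a fixed block, 1 of the 45, or 2.22%, was lower at the unadjusted threshold, where 3.50% of all probes were lower, and the median was -0.32 against 0.11 for all probes.

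**Figure D4:**
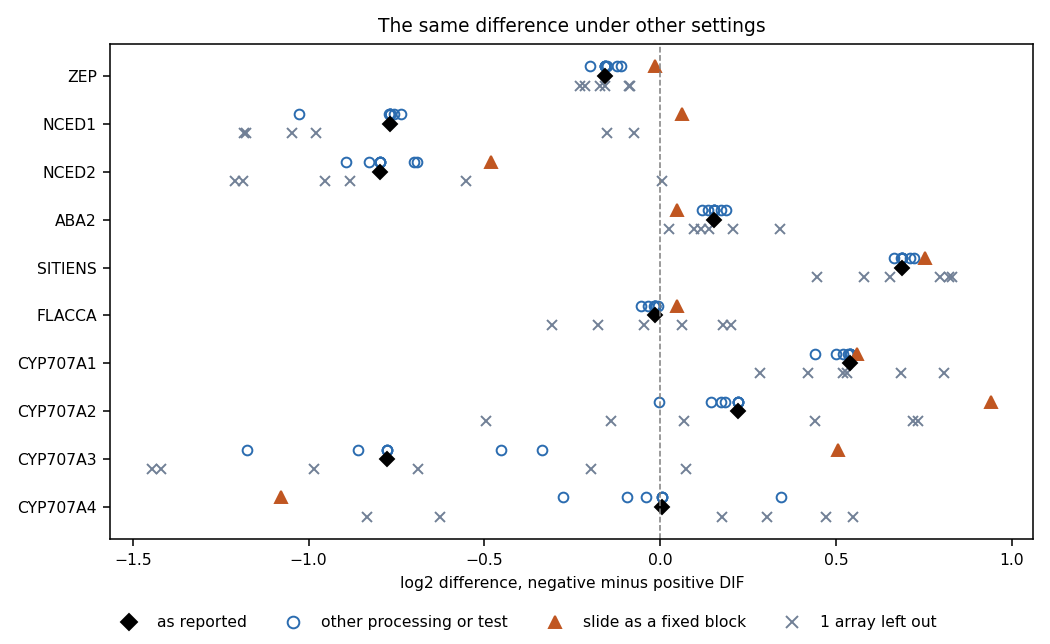
Log2 difference between negative and positive DIF of each gene as reported (black diamonds), under other processing or tests (blue circles), with slide as a fixed block (orange triangles) and with 1 array left out (grey crosses). ABA2, SITIENS and CYP707A1 stay above 0 throughout and ZEP stays below it. NCED1, NCED2, CYP707A2, CYP707A3 and CYP707A4 move over a wide range with single arrays.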

How the data were processed

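The authors labelled total RNA from epicotyls with a single dye, hybridised it to a custom tomato array and deposited the spot intensity values of Agilent Feature Extraction 10.10.1.1, which had the background subtracted and carried no scaling across arrays. Also deposited were the authors' normalized log2 values for 33614 genes, made by a method not given in the sources used here. The heading over that table names the opposite treatment to the arrays its columns match in rank order (Spearman 1.000 over 26865 genes with 1 probe). That match tells which array a column is, not which treatment label is right. The study's supplementary lists print these values under the treatments of the sample titles, which were used here. The columns were thus read as the arrays they match, and the table served as an alternative only.

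Control spots and 2 non-uniform spots on each of 2 arrays were left out, and log2 of the processed signal minus the array's 75th percentile was taken, without a filter on dim probes. All 43803 probes were fitted with limma 3.58.1 in R 4.3.3. Treatment was the sole term. Tables and plots were made in Python 3.11.15. The number of arrays limits the precision. The fit was tested on simulated data with known changes and no slide effect. These changes were larger than the fitted difference of any member, so the test does not bear on differences of that size. The members and lists were chosen with earlier results of these data known. All 10 members are described, and the genes whose levels followed a member most closely were sought for the member of largest fitted difference among those measured on every array. Alternatives were normexp background correction (offset 50, on the median spot signal), quantile normalization, the deposited log2 values, a filter that left 26942 probes, variance trend with robust shrinkage, Student's t-test, a block for slide (fixed, then random), a block for replicate number, and each array left out. The filter kept probes well above background on all 3 arrays of at least 1 treatment. The random slide block had a fitted correlation of -0.22. It thus took arrays of the same slide as less alike than arrays of different slides. Slide and treatment overlap in part, so its values are not read as corrected for slide. A promoter and protein comparison and the naming of single genes on the signalling lists were planned and not run, for want of sequences and of an annotation of the identifiers.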

Additional observations from a re-analysis of the deposited data

How the results depend on the processing

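No member passed an adjusted p under 0.05 in limma or Student's t-test under any of the 9 alternatives or the 6 fits with 1 array left out, and the lowest adjusted p was 0.110, for SITIENS with normexp. The number of members at an unadjusted p under 0.05, 1 as reported, was 0 with quantile normalization and with Student's t-test, and between 0 and 2 with 1 array left out. It was 1 with the replicate number as a block, but the gene was then CYP707A3 (-0.78, unadjusted p = 0.0291 and adjusted p = 0.245 from limma) and not SITIENS. Of all 43803 probes, 4450 were higher and 3820 lower at this unadjusted threshold as reported. These became 4855 and 4788 with quantile normalization, 4111 and 3715 with Student's t-test, and 3822 and 3377 with the replicate block. With 1 array left out, 2878 to 4426 were higher and 2802 to 3527 lower. Same-numbered arrays deviated together only weakly (correlations of 0.04, 0.06 and 0.22), and negative DIF replicate 2 followed positive DIF replicate 1 most closely (0.27), so the numbers were not taken as pairs. Array-wide calls at the adjusted threshold (186 higher, 217 lower) became 1490 and 1527 with a random slide block (slide correlation -0.22). They were 1003 and 1154 with normexp, 1127 and 1173 on the deposited values, and 571 and 695 with quantile normalization. The filter gave 955 and 1038, trend and robust 889 and 921, and Student's t-test 12 and 17. A fixed slide block or replicate block gave 0 and 0. With 1 array left out the calls ran from 0 to 427 higher and 0 to 140 lower. Of 148 recomputed differences 131 kept their direction, and ZEP, ABA2, SITIENS and CYP707A1 kept it in all that were run. Directions turned with slide as a fixed block for NCED1 (0.061), FLACCA (0.047), CYP707A3 (0.51) and CYP707A4 (-1.08). With slide as a random block CYP707A2 stood at -0.0031. For CYP707A4 the difference, 0.0058 as fitted, was also -0.28 with normexp, -0.095 with quantile normalization and -0.040 on the deposited log2 values. All its values here come from signals mostly at background and carry no direction, and those of CYP707A3 are so in part. With 1 array left out the range was -1.21 to 0.0043 for NCED2, -0.31 to 0.20 for FLACCA, -0.50 to 0.73 for CYP707A2, -1.44 to 0.074 for CYP707A3 and -0.83 to 0.55 for CYP707A4. The normexp setting moved the median difference of all probes from 0.07 to -0.19. The filter on dim probes left CYP707A3 and CYP707A4 out. For the signalling and target lists, a check chosen after the data were seen, between 1 and 12 probes were lower at the unadjusted threshold and between 0 and 1 higher over all settings, and between 0 and 2 passed the adjusted one. The 1 came with slide as a fixed block, where 3.50% of all probes were lower, and the 12 with normexp, where 15.7% of all probes were.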

Other observations

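A gene outside the 10, Solyc12g056710, is described in the study's list of genes higher under negative DIF as a xanthoxin dehydrogenase, the same activity as ABA2. It was picked here after its values were seen, and that list was drawn up from these same arrays, which makes its direction no independent evidence. Its probe was well above background on all 6 arrays, with levels of -2.40, -2.87 and -2.34 on negative DIF replicates 1 to 3 and -5.12, -3.49 and -5.84 on positive DIF replicates 1 to 3. All 3 negative DIF arrays lay above all 3 positive DIF arrays. The difference was 2.28 on the log2 scale (standard error 0.59, limma, unadjusted p = 0.00776, adjusted p = 0.121) and did not pass the adjusted threshold.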
